A study of Camelus dromedarius with 4 samples.

Results

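Olfactory receptor transcripts were examined in the supraoptic nucleus (SON) of the dromedary camel, the hypothalamic nucleus whose magnocellular neurones make vasopressin and oxytocin. Members were taken from the deposited table of season means by symbol alone. A symbol counted when it was wholly made of OR, digits, capital letters and digits (OR6B2, OR1J4), whatever its level. There, 294 of 18152 symbols matched, and 238 of these had a mean in both seasons, out of 16053 symbols with both means. The other 56 were listed without means and carry no value here. Another 29 symbols for olfactory receptor pseudogenes or joined receptor names fell outside the rule.

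RNA from the SON of age-matched adult male camels of the Tergui breed was sequenced from 2 winter and 2 summer animals, all hydrated. The winter animals were slaughtered in January at El Oued and the summer animals in June at Ouargla, so season and place of slaughter cannot be told apart. With 2 libraries per season, p-values measure only the spread between these samples, and an exact permutation test could not go below p = 0.333.

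Olfactory receptors are G protein-coupled receptors with a coding region that usually lies in a single exon, and they form the largest gene family of mammals. In the nose each sensory neurone expresses 1 receptor gene, and the receptor acts through the G protein subunit GNAL, the adenylyl cyclase ADCY3 and a cyclic nucleotide-gated channel. Class I receptors (families 51, 52 and 56 here) resemble those of fish, and class II receptors make up the rest. Transcripts of some members are known from tissues other than the nose, such as sperm, prostate and skin. No camel sequences of the members were used here, and 0 of the 238 symbols matched the RefSeq gene table of the mCamDro1.pat assembly, so no sequences or positions are given. The symbols come from the study's own annotation by similarity to known proteins. Reads from near-identical receptor copies may have been dropped or shared, so each member's value is uncertain in that respect.

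A season mean is the average over the libraries of a season of read counts divided by DESeq size factors, called a normalized count below. Each mean was solved for the whole reads in its libraries. Of the 238 members, 230 had a single solution in both seasons, and a further 7 had one in summer only. The libraries were called winter A and B and summer A and B, A having the larger size factor in each season. The table does not say which of them is which labelled replicate. A level is not corrected for transcript length. Where levels of different genes are set side by side below, they compare normalized counts and not the number of transcripts. Abundant members are those high in normalized counts.

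The summer libraries stood apart from each other. Among the 9773 symbols with recovered reads, 84.9% had at least 1 read in summer library A, against 96.4% to 97.3% in the other libraries. Reads recovered on these symbols were 559155 and 374173 in winter A and B, and 362887 and 424609 in summer A and B. In the deposited count files, which carry gene models without symbols, summer replicate 2 had reads on 40178 of 64989 models and summer replicate 1 on 52456. Both winter replicates there had reads on 49320 to 50154 models. In both sources fewer features were detected in that summer library whose size factor was the larger. Results below are therefore mostly given with the value of each library, or with and without the summer libraries. Some are given as season means only, as for genes whose reads had several solutions.

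Olfactory receptor transcripts were low in normalized counts, which are not corrected for length. At least 10 normalized counts in the mean of a season were reached by 130 of the 238 members (54.6%), against 86.0% of all symbols with means. This level was reached in both seasons by 88 members and a mean of 100 in a season by 14. Below 5 in both seasons lay 62 members (26.1%), against 7.52% of all symbols. The median over members was 11.2 normalized counts for summer means and 6.08 for winter means. In winter 9 members were listed at 0, and in summer 4.

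By season means, 186 of the 238 members (78.2%) were lower in winter than in summer and 52 were higher, against 53.9% lower among all symbols. The median log2 ratio of winter over summer, with 1 normalized count added to each mean, was -0.64 (quartiles -1.15 and -0.10). Over all symbols with means it was -0.04. Summed over all 238 members, the season means came to 6613 normalized counts in summer and 4826 in winter. This ordering of the seasons is described without a test, and the library values that follow show that it was not shared by both summer libraries.

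The sum of normalized reads over the 230 members with recovered reads was 2333 in winter A, 3531 in winter B, 1414 in summer A and 7769 in summer B. The summer libraries were thus the lowest and the highest of the 4, and both winter libraries lay between them. Summer B exceeded summer A by 5.49 times in this sum, whereas the sum over all 9773 symbols differed by 1.23 times. The winter libraries differed by 1.51 times in the receptor sum. The summer mean of sums was 4592 ± 4494 (SD, n = 2) and the winter mean 2932 ± 847 (SD, n = 2), so the spread between the summer animals was larger than the difference between seasons. When the 7 members solved in summer only were added, 237 members summed to 3358 in summer A and 9383 in summer B, a ratio of 2.79. The other 13451 symbols solved in summer had a ratio of 1.02. In bulk tissue, fewer cells of a type and less RNA per cell cannot be told apart.

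**Figure D1:**
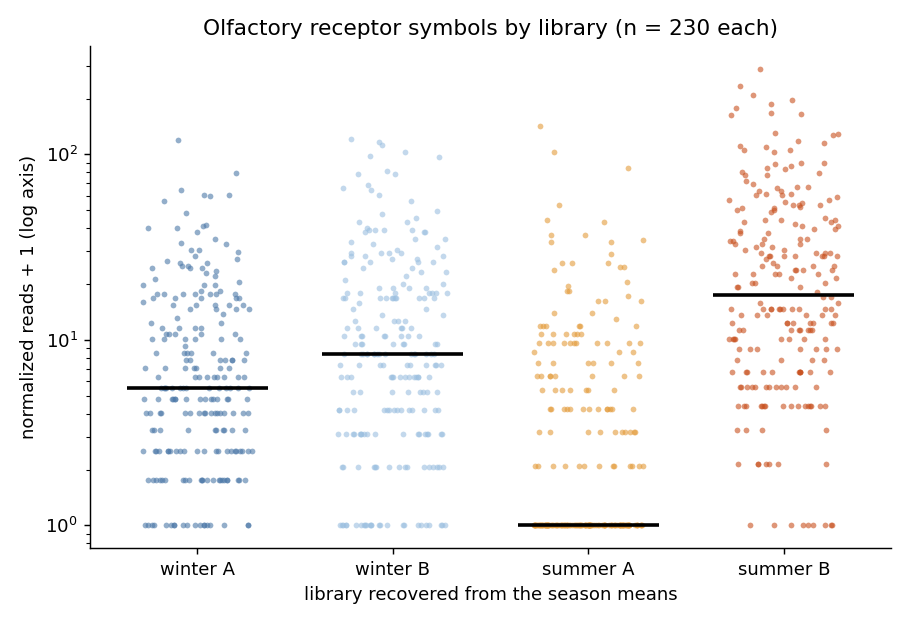
Normalized reads plus 1 (log axis) of the 230 olfactory receptor symbols with recovered reads, 1 point per symbol, in each of the 4 libraries, with the median as a black line. The median lies at 0 reads in summer A and at 16.5 normalized reads in summer B, with 4.53 and 7.40 in winter A and B.

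At least 1 read fell on 211 of the 230 members in winter A, 205 in winter B, 112 in summer A and 221 in summer B. Detection in summer A was thus 48.7% of members, against 96.1% in summer B, while for all symbols the same shares were 84.9% and 97.0%. A count of 0 allows up to 3 reads, which is 3.25 normalized reads in summer A and 3.42 in summer B, for counting error only. Reads were found in every library for 103 members. In 29 members summer A had 0 reads and summer B 20 or more, and the reverse held for 1 member, OR5B21, with 23 reads in summer A and 0 in summer B. In 88 members at 0 in summer A, both winter libraries held reads.

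Member by member, summer B lay above summer A in 210 of 230 (91.3%), below it in 16 and level with it, at 0 reads in both, in 4. Among all 9773 symbols summer B lay above summer A in 64.0%. Both winter libraries lay between summer A below and summer B above in 132 members (57.4%), against 22.2% of all symbols. The opposite arrangement, with summer A above both winter libraries and summer B below, held in 3 members (1.30%), against 7.11% of all symbols. Of the members that reached a season mean of 10, 114 of 122 (93.4%) were higher in summer B than in summer A. The members are not independent replicates, since all share these libraries, and the counts are given without a p-value.

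**Figure D2:**
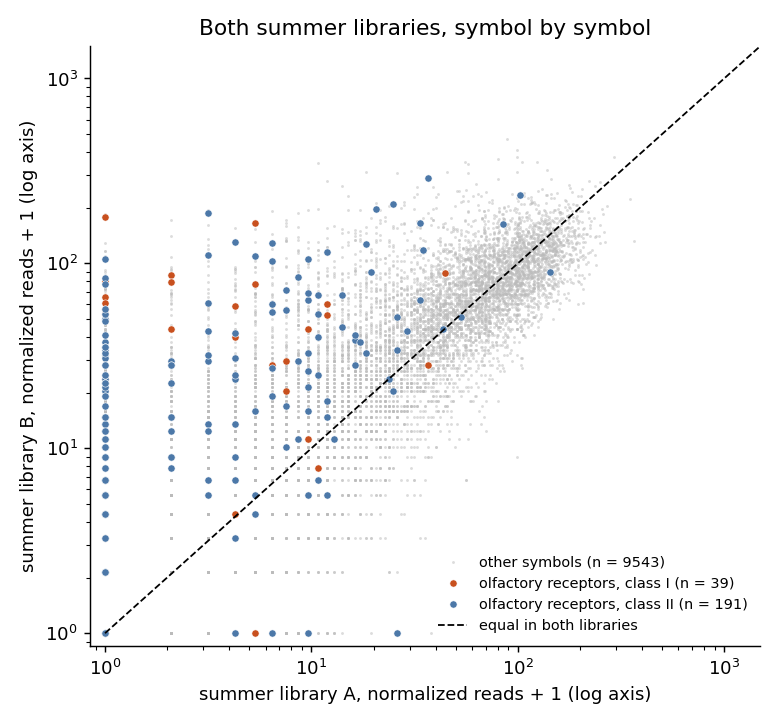
Normalized reads plus 1 in summer library A (horizontal, log axis) against summer library B (vertical, log axis) for 39 class I receptors, 191 class II receptors and 9543 other symbols, with a dashed line where both are equal. In 210 of the 230 receptor symbols summer B lies above summer A, and 118 lie at 0 reads in summer A.

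Below a level of 100, the gap between the summer libraries was wider for receptors than for other symbols of like level. Among symbols whose season means averaged 20 to 50 normalized counts, the 46 members summed to 5.98 times as many normalized reads in summer B as in summer A, and the 2292 other symbols to 1.44 times. Between 10 and 20 the ratio was 6.91 for 38 members and 1.83 for 1262 other symbols. Between 50 and 100 it was 6.68 for 12 members and 1.16 for 2454 other symbols. From 0 to 5 and from 5 to 10, members had ratios of 8.10 and 4.91 and other symbols 2.93 and 2.17. At 100 and over, the ratio was 1.08 for 11 members and 0.962 for 4965 other symbols. In these sums the gap between the summer libraries was thus found in receptors below this level. At 100 and over the members differed, with summer B above summer A in 5 of the 11 and below it in 6. OR4A15 and OR6C2 were among the 5, with ratios of 8.06 and 8.74. These ratios use each symbol solved in summer, whether or not winter could be solved.

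**Figure D3:**
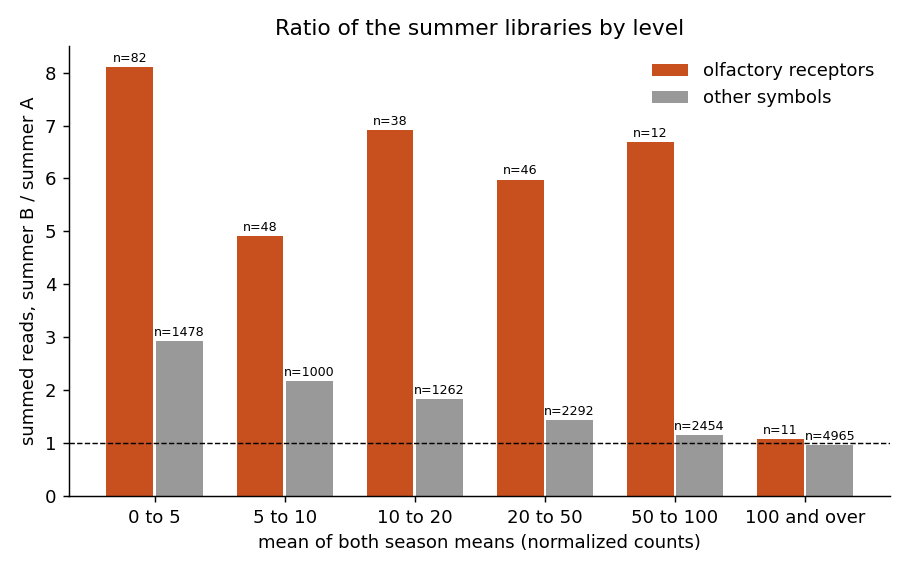
Ratio of summed normalized reads, summer B over summer A, by the mean of both season means (normalized counts), for olfactory receptors and for other symbols, with the number of symbols over each bar and a dashed line at 1. Symbols solved in summer are shown. Below 100, receptors range from 4.91 to 8.10 and other symbols from 1.16 to 2.93, and at 100 and over the ratios are 1.08 and 0.962.

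The most abundant members were divided. Of the 14 members that reached a season mean of 100, 13 could be solved in summer, and 6 of these were higher in summer A and 7 in summer B. OR13A1 had the highest level, with season means of 421 in summer and 448 in winter and with 485 and 277 reads in summer A and B. OR5K1, whose human form is known as a pyrazine receptor, had means of 338 and 325, with 281 and 326 reads in summer A and B. For OR2AG1, whose human form responds to amyl butyrate, the means were 297 and 285, with 289 and 247 reads. These 3 members thus lay close to 1 level in both seasons, and none had summer B above summer A by more than 1.22 times.

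Among the other abundant members, OR4C15 had 243 and 171 reads in summer A and B, OR4C6 had 200 and 126, and OR1G1, a broadly tuned receptor in man, had 158 and 105. OR2D3 had 137 and 164 reads there. Winter reads of these members had several solutions and are not given, nor are the libraries of OR4C11, with means of 242 in summer and 193 in winter. OR1D2, the receptor known from human sperm, had 104 and 91 reads in winter A and B against 131 and 78 in summer A and B, so that its seasons overlapped. Each of these abundant members was well detected in summer A.

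Other abundant members had summer B above summer A, as most of the members had. OR4A15 had 53 and 105 reads in winter A and B against 33 and 253 in summer A and B. Its neighbour in name, OR4A47, had 73 and 96 winter reads against 18 and 171 summer reads, ratios of 8.06 and 9.99 between the summer libraries on the normalized scale. In both, summer A was the lowest library and summer B the highest. OR6C2 had 79 and 114 winter reads against 22 and 183 summer reads. OR6C4 had 158 and 109 winter reads against 94 and 204 summer reads, and OR6C68 had 78 and 76 winter reads against 77 and 143 summer reads. The ratio between the summer libraries was 8.74 for OR6C2 but 2.28 for OR6C4 and 1.95 for OR6C68, so members of 1 subfamily differed in it.

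The remaining members among the 20 with the highest levels were OR4F3, OR2B3, OR5B2, OR51F2, OR52N4 and OR51B6. OR4F3 had 84 and 92 winter reads against 30 and 144 summer reads, and OR2B3 had 79 and 73 winter reads against 31 and 103 summer reads. OR5B2 had 49 and 44 winter reads but 2 and 164 summer reads, and OR51F2 had 39 and 64 winter reads against 4 and 145 summer reads. All 4 had the winter libraries between the summer libraries. OR52N4 was the most even of the 6, with 52 and 73 winter reads against 40 and 77 summer reads. OR51B6, of a subfamily that flanks the beta-globin genes in mammals, had 22 and 26 reads in winter, 0 in summer A and 156 in summer B.

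Several other members were at 0 in summer A and well detected elsewhere. OR5W2 had 28 and 17 reads in winter A and B and 92 in summer B. OR4S2 had 33 and 40 in winter and 67 in summer B, and OR52E2 had 34 and 35 in winter and 70 in summer B. For these members the winter reads were close to each other, and only summer A lacked reads. OR4P4 had 9 and 21 reads in winter and 72 in summer B. OR4E2, known to respond to amyl acetate, had 10 and 18 reads in winter and 42 in summer B, and OR5AC1 had 22 and 24 and then 49.

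Of the 230 members with reads recovered in both seasons, 16 had summer A above summer B. OR13A1, OR2AG1, OR4C15, OR4C6 and OR1G1, solved in summer only and described above, had summer A above as well. Apart from OR1D2, the best detected of the 16 were OR1E1, OR52I1 and OR2G6. OR1E1 had 48 and 44 reads in summer A and B and 63 and 46 in winter A and B. OR52I1 had 33 and 24 against 32 and 15, and OR2G6 had 22 and 17 against 6 and 7. Both libraries of each season were close to each other in OR2G6. The others had at most 11 reads in a summer library, except OR5B21, which had 5 and 2 reads in winter beside its 23 and 0 in summer.

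By class, the 39 class I members summed to 424 and 679 normalized reads in winter A and B and to 172 and 1531 in summer A and B. The 191 class II members with recovered reads summed to 1909 and 2852 in winter and to 1242 and 6238 in summer. Both classes thus had the same order of libraries, with summer B above summer A by 8.88 times in class I and 5.02 times in class II. With the 7 members solved in summer only, all of class II, the class II ratio was 2.46 over 198 members (3186 and 7852). Lower in winter by season means were 29 of 39 class I and 157 of 199 class II members, with median log2 ratios of -0.63 and -0.65.

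Families differed in the size of the gap between the summer libraries. It was widest in family 51, whose 15 members summed to 22.8 normalized reads in summer A and 735 in summer B, a ratio of 32.3, with summer B above in all 15. Family 7 (5 members) had a ratio of 19.3 and family 8 (11 members) of 10.5. Intermediate ratios were found in family 52 (5.24), family 6 (3.97), family 11 (3.69) and family 10 (3.40). In family 4 the ratio was 3.03 over 34 members, with summer B above in 32, and without the abundant OR4C6 and OR4C15 it was 13.0. In family 5 it was 3.29 over 26 members, with summer B above in 25, and without OR5K1 it was 12.4. In family 2 it was 2.06 over 34 members, and 5.68 without OR2AG1 and OR2D3. The place of these 3 families in the order therefore depended on 1 or 2 abundant members each.

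Family 9 had a ratio of 2.55, and family 3 one of 1.34 over 3 members. In family 1 the summer libraries were near each other, with 398 normalized reads in summer A and 419.5 in summer B over 14 members, although summer B was above in 11 of them. OR1D2 and OR1G1 held 142 and 171 of the summer A reads. In family 13 summer A was the higher, with 567 against 421 over 11 members. OR13A1 held 526 of these reads in summer A, and without it the ratio was 2.54, so this 1 member turned the direction of its family. Over members with recovered reads, the order of the winter libraries was the same in each family with 5 or more, winter B having 1.07 to 2.13 times the sum of winter A.

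**Figure D4:**
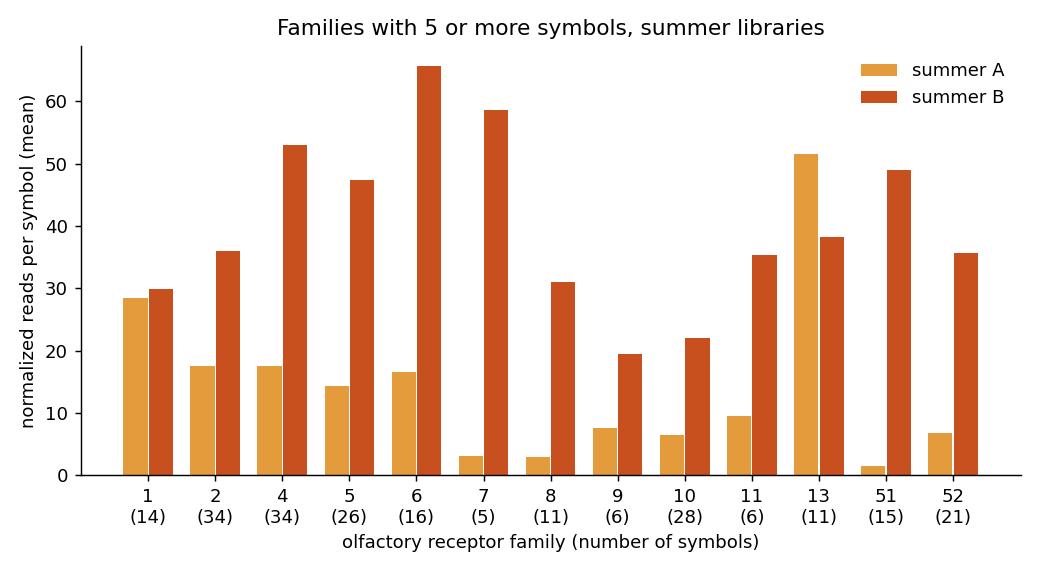
Mean normalized reads per symbol (vertical) in summer A and summer B for the olfactory receptor families (horizontal) with 5 or more symbols solved in summer, the number of symbols in parentheses. Summer B is the taller bar in each family shown except family 13, and the ratio is widest in family 51, at 32.3.

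The season difference was tested over 7531 symbols, 122 of them members, by the quasi-likelihood test of edgeR on whole reads. A member passed the filter if it reached a mean of 10 in a season. By the rule that the study states, more than 2-fold with an unadjusted p under 0.05, 1 member was higher in winter (0.820%, against a background of 0.863% of all symbols tested). By the same rule 4 members were higher in summer (3.28%, against 0.850%). Each of these 5 members reached 10 only in the season in which it was high, so the filter favoured them. Among the 80 members at 10 or more in both seasons 0 were called, against 77 of all 6669 symbols at that level. At a Benjamini-Hochberg adjusted p under 0.05 the quasi-likelihood test called 0 members and 0 symbols (0.00%). At an unadjusted p under 0.05 it gave 5 members, against 157 of all 7531 symbols. DESeq2, edgeR's exact test and limma-voom called 0 members by adjusted p, and 1, 3 and 0 by the rule. Over all 7531 symbols they called 1, 1 and 0 by adjusted p, and 59, 96 and 82 by the rule.

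OR6B2 was the member higher in winter, with 7 and 19 reads in winter A and B and 0 in both summer libraries. Its winter mean was 3.80 times a floor of 3 reads in each summer library. The winter libraries were unlike, with 5.28 and 20.1 normalized reads, and winter A alone lay nearer to the floor. Its edgeR quasi-likelihood unadjusted p was 0.0233 and its adjusted p 0.979. OR1J4 was higher in summer, with 0 and 2 winter reads against 5 and 16 summer reads. The ratio of its pooled reads, summer over winter, each divided by the summed size factors of the season, was 13.3 (95% exact counting interval 3.24 to 117). Its edgeR quasi-likelihood unadjusted p was 0.0420 and its adjusted p 0.979.

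OR5M11 was also higher in summer, with 2 and 3 winter reads against 8 and 18 summer reads, a log2 difference of -2.65 (winter over summer, edgeR quasi-likelihood unadjusted p = 0.0314, adjusted p = 0.979). OR11G2 had 8 and 7 winter reads against 14 and 35 summer reads (log2 difference -2.03, edgeR quasi-likelihood unadjusted p = 0.0442, adjusted p = 0.979). OR2G6, already described, had a log2 difference of -1.89 (edgeR quasi-likelihood unadjusted p = 0.0477, adjusted p = 0.979). In all 5 called members both libraries of 1 season lay above both of the other. Of the 20 members with the highest levels 12 could be tested, and 0 were called.

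Groups that do not overlap were counted over the same symbols. Both summer libraries were above both winter libraries in 17 of 122 members (13.9%), against 17.3% of all symbols tested. Both winter libraries were above both summer libraries in 4 members (3.28%), against 13.4%. Neither count showed more members with separate seasons than among all symbols.

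By season ratio, the members with separate seasons that were highest in winter were OR6B2, OR6V1, OR7D4, OR9G1 and OR8K1. OR7D4, the androstenone receptor of man, had 15 and 17 winter reads against 3 and 7 summer reads (edgeR quasi-likelihood unadjusted p = 0.180, adjusted p = 0.979). OR6V1 had 5 and 7 winter reads against 0 and 1 summer reads, OR9G1 had 5 and 4 and then 0 and 2, and OR8K1 had 2 and 1 and then 0 and 0. The last 3 were below the mean of 10 and were not tested. At the other end, beside OR1J4 and OR5M11, OR13H1 had 1 and 1 winter reads against 6 and 8 summer reads, OR10AD1 had 1 and 0 and then 4 and 4, and OR3A1, known to respond to helional, had 3 and 1 and then 7 and 9. In these 3 the summer libraries were close to each other, at counts too low for the main test.

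The direction of the season ratio changed with summer library B and with the scale of averaging. In the edgeR fit 107 of 122 members were lower in winter (median log2 difference -0.80), but in limma-voom, which averages log values, 51 of 122 were (median 0.16). Without summer library B, the median log2 ratio of the 230 members was 1.39, and 187 of them were higher in winter. Without summer library A the median was -1.38, and 202 were lower in winter. With all libraries the median of these 230 members was -0.67. The same medians over all 9773 symbols were 0.27 without summer B, -0.19 without summer A and -0.11 with all libraries, so the members moved in the direction of all symbols and further.

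**Figure D5:**
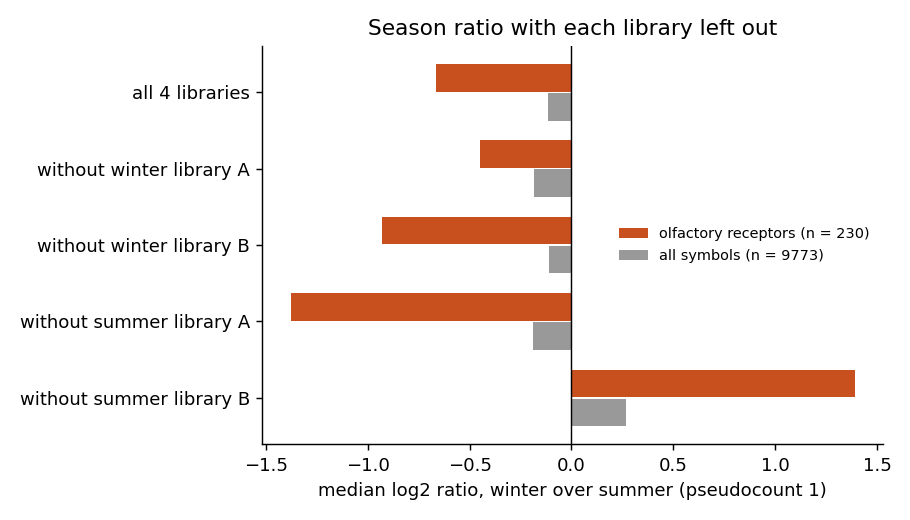
Median log2 ratio of winter over summer (1 normalized count added) with all 4 libraries and with each library left out, for the 230 olfactory receptor symbols and for all 9773 symbols with recovered reads. The receptor median is -0.67 with all libraries, -0.45 and -0.93 without winter A or B, -1.38 without summer A and 1.39 without summer B.

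Calls by the rule moved in the same way. Without summer A, 81 of 122 members were called (66.4%, against 14.2% of all symbols), 79 of them higher in summer. Without summer B, 51 were called (41.8%, against 14.6%), 49 of them higher in winter. Without winter A or winter B the median log2 difference of the tested members was -0.49 and -1.09, against -0.18 and -0.11 over all symbols. In the fits without a summer library the lone one was assumed to vary like the winter pair. The 79 and the 49 calls point in opposite directions, and each set has 1 summer animal behind it. Among the 5 members called with all libraries, OR6B2 alone was called under each omission. OR1J4, OR5M11 and OR11G2 were called without summer A but fell short of the rule without summer B. Their log2 differences there were -2.455, -1.91 and -1.178. They also fell short without winter A, and OR5M11 and OR11G2 without winter B. OR2G6 was called without either summer library but fell short without winter A or winter B, with log2 differences of -1.53 and -2.228. In each of these cases the difference was more than 2-fold, but the edgeR quasi-likelihood unadjusted p was not under 0.05.

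Several members are known for expression outside the nose. OR51E1, known from human prostate and gut, had 54 and 36 reads in winter A and B against 10 and 45 in summer A and B. OR51E2, a receptor for short-chain fatty acids in kidney and prostate, had 3 and 3 and then 0 and 8. OR2AT4, described in skin keratinocytes, had 4 and 5 winter reads against 0 and 21 summer reads. In these and in the following members the seasons overlapped.

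OR4M1, whose mouse counterpart was described as a receptor for the fasting hormone asprosin, had 7 and 3 winter reads against 0 and 19 summer reads. OR2J3, which responds to the odour of cut grass, had 10 and 7 and then 1 and 24. OR10J5, described in blood vessels, had 0 and 9 winter reads against 0 and 5 summer reads, the only one of these 6 with the winter animals farther apart than the summer animals. None of those tested was called. OR2W3 and OR7A5 were listed without means.

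Of 32 genes chosen for olfactory signal transduction, 30 were in the table and 27 had means, 21 of them at 10 or more in a season. By season means 17 were lower in winter and 10 higher, with a median log2 ratio of -0.06. Of 10 that could be tested 0 were called. The 16 with recovered reads summed to 651 normalized reads in summer A and 671 in summer B, a ratio of 1.03. At season means averaging 20 to 100 the ratio was 0.947 over 9 signalling genes and 6.22 over 58 receptors. Below 20 it was 2.34 over 6 signalling genes, with 9.76 and 22.8 normalized reads in all, and 6.33 over 168 receptors.

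GNAL, the G protein subunit that receptors couple to in the nose and that is also used in the striatum, had 99 and 43 reads in winter A and B and 37 and 35 in summer. ADCY3, the cyclase, had season means of 246 in summer and 280 in winter, with 199 and 242 reads in summer A and B. CNGB1 had 57 and 33 winter reads against 65 and 66 summer reads, and CNGA4 had 31 and 39 and then 34 and 25. These are subunits of the cyclic nucleotide-gated channel. ANO2, the chloride channel of the pathway, had 19 and 24 winter reads against 18 and 32 summer reads. Apart from ANO2, these were at like levels in both summer libraries.

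Markers of the olfactory epithelium were mixed. OMP, the olfactory marker protein, had 2 and 2 winter reads against 3 and 3 summer reads, and GNG13 had 7 and 4 and then 5 and 4. STOML3 had 1 and 0 and then 0 and 3. CNGA2, the main channel subunit, and RTP1, which carries receptors to the cell surface, were listed without means. Others on the list were detected. RTP2, of the same role, had 21 and 14 winter reads against 30 and 27 summer reads, and GUCY2D, a guanylyl cyclase also of the retina, had 18 and 15 and then 46 and 22. The transcription factors LHX2 and BARX2 had 37 and 16 and then 20 and 18, and 104 and 36 and then 39 and 102. Of 20 markers of the olfactory epithelium, 13 had means and 7 reached 10. UGT2A1 had 4 and 5 winter reads against 2 and 21 summer reads, and SEC14L3 had 4 and 4 and then 5 and 12. ADH7 had 0 and 1 and then 4 and 6, and EMX2 had 4 and 6 and then 0 and 1. TRPC2 had season means of 580 in summer and 627 in winter. The 12 with recovered reads summed to 176, 150, 204 and 278 normalized reads in winter A, winter B, summer A and summer B. This range was narrower than that of the receptors, but the sums were not matched for level and rest mostly on the better detected markers.

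Markers of the SON with recovered reads were present in all libraries but uneven. Of 9 genes for magnocellular neurones 8 had means, all of them at 10 or more, OXT at 592 in summer and 621 in winter. The gene left out was AVP, for vasopressin, which was not listed under that symbol and has no value here. The paper reports its transcripts as apparently higher in summer. The 5 with recovered reads, OXT not among them, summed to 331 and 134 in winter A and B and to 259 and 382 in summer A and B. Winter B was low in SIM1 (13 reads, against 84 in winter A) and PDYN (8 against 84), so the winter samples differed in these markers while their receptor sums ran the other way. CALB1 had 10 reads in summer A and 82 in summer B. Of 15 markers of neurones, glia and endothelium, all reached a mean of 10 in a season, and the 6 with recovered reads summed to 317 in summer A and 376 in summer B. The 3 markers of neurones were all lower in summer A than in summer B, SNAP25 with 79.2 and 199.5 normalized reads, SYT1 with 36.9 and 116 and RBFOX3 with 15.2 and 33.1. Markers of other cells went either way, SLC1A3 of astrocytes with 56.4 and 118 and CSF1R of microglia with 77.0 and 35.3. The part of these markers in the receptor values was not tested.

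Other chemosensory receptors were compared with the olfactory receptors. The 15 bitter and sweet taste receptors with recovered reads summed to 202 and 342 normalized reads in winter and to 187 and 325 in summer, a ratio of 1.74 between the summer libraries. The 4 vomeronasal receptors had a ratio of 1.33. The 5 trace amine receptors had 0 in summer A and 43.3 in summer B, with 9.06 and 21.2 in winter. The 12 keratin-associated protein symbols, genes for hair proteins that also have a short single exon, summed to 17.4 in summer A and 205 in summer B, a ratio of 11.8, with 58.9 and 92.0 in winter. The order of the libraries seen for the olfactory receptors was summer A lowest and summer B highest, with winter between. It was also present in the trace amine receptors and in the keratin-associated proteins, the latter having no part in smell. Nor was it limited to such families, since all symbols other than olfactory receptors had it in each range of level below 100. At 20 to 50 these summed to 79060 and 70430 in winter A and B and to 65150 and 93940 in summer A and B.

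The same order was seen over low-level gene models in the deposited count files. Models whose mean normalized count was under 10 summed to 123203 normalized reads in summer replicate 1, but to 41503 in summer replicate 2. Winter replicates 2 and 3 lay between, at 57574 and 100341. The models cannot be tied to symbols, and the part of this feature of the libraries in the receptor values was not tested.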

How the data were processed

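RNA-seq of the SON was analysed in 4 libraries, grouped by season from the sample labels. The authors made stranded, ribosomal RNA-depleted libraries, aligned the reads with TopHat to an assembly of their own and used HTSeq for counting. The deposited count files hold raw read counts per gene model, 4379162 to 6902037 per library, and served for depth only. The deposited table gives per symbol a signal, the season average of read counts after division by DESeq size factors. Its columns of edgeR fold change and p-value were not used. Versions and the strand setting of the counting are not given in the sources used here.

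The design assumed no symbols in the count files, and this held. Whole reads were therefore recovered from the means, by finding what 1 read is worth in each library (0.377 and 0.529 in winter, 0.542 and 0.570 in summer) and solving each mean for whole numbers within 1.2 times the rounding of its 6 printed digits. Each of the 16053 symbols had a solution, and all 8274 symbols with both means under 100 had a single one. Single solutions become rare at high means, so the 9773 symbols used favour low levels. Values over every symbol solved in summer were added after seeing the data.

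Symbols that reached a season mean of 10 went into the main test, edgeR 4.0.16 under R 4.3.3 (glmQLFit, glmQLFTest, size factors from the table, Benjamini-Hochberg adjustment over all symbols tested). Alternatives were limma-voom (limma 3.58.1), DESeq2 1.42.0, edgeR's exact test, other scalings, filters and fold thresholds, and leaving out each library. The 5 called members were named as such. Other named members were the 20 with the highest levels, the 5 largest and 5 smallest season ratios with separate seasons, OR6B2 and OR1J4, and members known from other tissues. Further examples, those at 0 in summer A or higher there, were chosen after their values were seen. The members and lists were chosen with earlier results of these data known. The recovery and the test were tested on simulated data. Figures were drawn with matplotlib 3.10.9. Floors and intervals cover counting error only.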

Additional observations from a re-analysis of the deposited data

How the results depend on the processing

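The median log2 season ratio of the members (-0.64) kept its direction under other pseudocounts, the minimum of 10 and other scalings, from -0.40 to -0.73. With each library left out in turn it ran from -1.38 to 1.39, and the log2 ratio of the summed levels (-0.65) from -1.41 to 1.05. Both were reversed without summer library B. For the sums, leaving out libraries was chosen after seeing the data, and the other settings gave -0.44 to -0.65.

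The rule called 5 members. Other scalings, fold thresholds, lower filters and low means only gave 4 to 7, against 67 to 162 over all symbols tested. The exact test of edgeR gave 3 (96 over all symbols), DESeq2 1 (59) and limma-voom 0 (82). A mean of at least 10 in both seasons gave 0 of 80 members, against 77 of 6669 symbols. With each library left out it gave 1 to 81, and the adjusted p 0 to 23. Each of these fits had 1 library in a season, so its counts carry no spread within that season. Without summer A, and likewise without summer B, most symbols that passed the adjusted p were not members. Of the 238 members, 82 reached a minimum of 20, and 130 a minimum of 10. No paired analysis was possible because the recovered libraries carry no replicate numbers, and the labels share only 1 number between the seasons. Over the single members named, 177 values stayed within the spread or on their side of the rule, 29 moved and 24, all of called members, fell short of the rule.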

Other observations

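Of the 29 symbols for olfactory receptor pseudogenes or joined receptor names, 22 had both season means. OR2W6P was the best detected, with 111 and 97 reads in winter A and B against 133 and 84 in summer A and B. OR5AK3P had 16 and 21 winter reads against 0 and 63 summer reads, and OR4A4P had 17 and 10 and then 2 and 44. A symbol that joins OR4A15 and OR4A47 had 8 and 22 winter reads against 1 and 58 summer reads, in the order of libraries that both receptors show. OR10D4P had 12 and 5 summer reads against 6 and 3 winter reads. These symbols were outside the rule for members and were chosen after their values were seen.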
